A study of Mus musculus with 16 samples.

Results

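The 3 RNA libraries of a feeder-removal experiment on cultured mouse male germline stem cells were compared with the 9 other RNA libraries of the same series. The 3 libraries were chosen by their labels: cells on mouse embryonic fibroblast (MEF) feeders at day 0, and cells on Matrigel at day 4 and day 9. They are 3 of 12 RNA libraries and of 16 samples in all. Of the 14301 genes tested, 3975 (27.8%) separated the sets, which means that all 3 libraries lay above, or all 3 below, every one of the other 9: 2080 genes (14.5%) lay above and 1895 (13.3%) below. Most of these gaps were small. A gap of at least 2-fold, measured between the nearest libraries of the sets, was left by 94 genes above (0.657%) and 166 genes below (1.16%).

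All 12 libraries came from germ cells of B6;CBA-Tg(Pou5f1-EGFP)2Mnn/J mice at postnatal day 5.5, a line in which EGFP is driven by Pou5f1 (Oct4) sequences. The cells were sorted as Oct4-positive and KIT-negative, and their serum-free medium held bFGF, EGF and GDNF. The other 9 libraries were epithelial-like cells on sparse Matrigel (0.1 µg/cm2) and mesenchymal-like cells on dense Matrigel (10 µg/cm2; the density experiment), Oct4-GFP low, mid and high cells sorted from Matrigel at 10 µg/cm2 (the sorted experiment), and MEF cultures given solvent (DMSO) or the G9a inhibitor UNC0638 at 0.5, 1 or 2 µM (the inhibitor experiment). With a single library in each condition, differences could not be checked against replicates, and p-values are not printed. The 3 libraries differ from the 9 in experiment, and any batch that went with the experiment cannot be told apart from it. The labels do not say whether the 3 libraries came from the same culture.

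Interferons are secreted proteins that cells release on sensing foreign or misplaced nucleic acid. Type I interferons bind the receptor pair Ifnar1 and Ifnar2, the kinases Jak1 and Tyk2 then phosphorylate transcription factors such as Stat2, which join Irf9 on a promoter element known as the interferon-stimulated response element (ISRE). Its targets slow viral replication, sense RNA and load peptides on class I histocompatibility molecules, and a few of them, such as Usp18, damp the pathway. In cultured germline stem cells another pathway is better known: GDNF acts on the receptor pair Gfra1 and Ret, and with FGF it sustains self-renewal genes such as Etv5, Bcl6b and Lhx1.

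The promoter sequences below are shown because several of the genes with the widest gaps above hold the ISRE core, which can be read in them directly. The core was searched as GAAANNGAAA on both strands, where its reverse complement reads TTTCNNTTTC, in RefSeq promoters of GRCm38.p6 that run from 250 bases before to 50 bases after each start. Capitals mark every match in the 50 bases shown, which all lie before the start.
Ifit1: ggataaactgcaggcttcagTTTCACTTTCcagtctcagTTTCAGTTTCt
Ifit3: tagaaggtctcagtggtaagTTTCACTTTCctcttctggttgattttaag
Rsad2: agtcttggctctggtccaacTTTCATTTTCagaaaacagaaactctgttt
Bst2: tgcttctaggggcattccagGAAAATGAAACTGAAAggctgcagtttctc
Igtp: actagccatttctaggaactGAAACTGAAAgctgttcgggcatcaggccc

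The Ifit1 stretch is chr19:34640765-34640814 and the Ifit3 stretch chr19:34583353-34583402, both on the plus strand. The Rsad2 stretch is chr12:26456543-26456592 and the Bst2 stretch chr8:71537573-71537622, both on the minus strand, and the Igtp stretch is chr11:58199502-58199551 on the plus strand. Irf7 and Irf9, which also lay above all 9, had no ISRE core in the same window of their promoters. Of the 94 genes with a 2-fold gap above, 69 had a promoter in the table, and 23 of those (33.3%) held the ISRE core. Of the 166 with a 2-fold gap below, 113 had a promoter and 1 (0.885%) held it. Over all 27025 genes with a promoter in the table the share was 3.99%, and over the 9764 tested genes with a promoter it was 3.62%. The gamma-activated site core TTCNNNGAA, whose search used the same strands and window and can overlap the ISRE core, was in 14 of the 69 (20.3%) and in 13 of the 113 (11.5%), against 9.55% of all promoters. Among the 51 genes with a 2-fold gap above that were on none of the interferon or class I lists, 38 had a promoter and 8 (21.1%) held the ISRE core. Promoter sequences covered 73.4% and 68.1% of the genes with a 2-fold gap above and below, under the 80% set as a minimum, so the comparison of these shares is void for the whole sets and the counts describe the covered genes alone. A match is a description of letters in this window.

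The 3 marker genes of the contrast were among the widest separations. Usp18, the protease that removes the ubiquitin-like protein Isg15 from its targets and blocks the type I receptor, lay at 350, 359 and 309 CPM (read counts put on a common total per library with TMM factors) at days 0, 4 and 9, and at 1.62 to 5.22 CPM in the other 9 libraries (median 3.30). Ifit3, which binds with Ifit1 to viral RNA, lay at 143, 145 and 138 CPM against 0 to 1.91 CPM (median 0.464). Ifit1, which recognises RNA caps that lack a methyl group, lay at 97.9, 105 and 109 CPM against 0.249 to 4.25 CPM (median 1.21). No library of the 9 came near the 3 for any of them, and the 3 differed little from each other. In deposited TPM, which is scaled to transcript length, Usp18 was 357, 375 and 348, Ifit3 147, 152 and 155, and Ifit1 63.1, 69.1 and 77.7. The log2 ratio between the nearest libraries of the sets, with its 95% Clopper-Pearson counting interval, was 5.89 (5.37 to 6.46) for Usp18, 6.17 (5.33 to 7.17) for Ifit3 and 4.53 (3.92 to 5.21) for Ifit1. These intervals, here and below, cover counting error only, since amplified reads are not independent molecules.

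**Figure D1:**
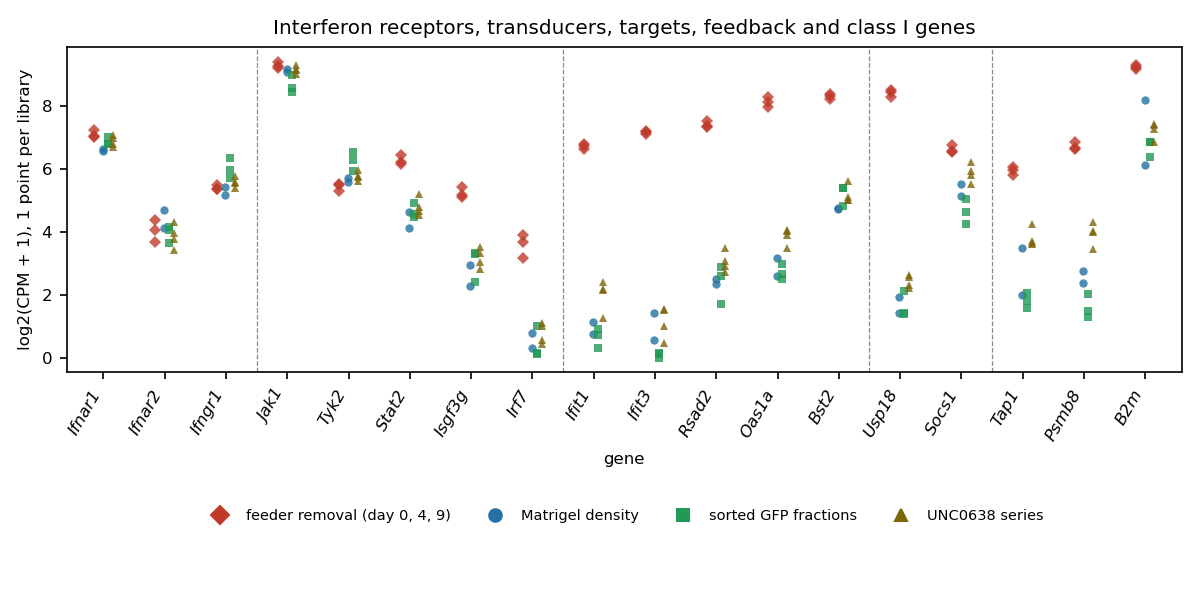
Level of 18 genes as log2(CPM + 1) in each library, with 1 point per library, red diamonds for the 3 feeder-removal libraries and other colours for the 9 others. Receptor and kinase genes sit together with the rest or slightly to one side, while Irf7, the targets, Usp18 and the class I genes sit above all 9, with Ifit3 at 138 to 145 CPM against at most 1.91 CPM.

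Interferon target genes made up 31 of the 94 wide gaps above. Background shares over all genes tested were 14.5% above and 13.3% below, or 0.657% above and 1.16% below with a 2-fold gap. Of 50 tested members of the interferon target list, 43 lay above all 9 others, 31 of them with a 2-fold gap, and none lay below. Genes were tested when their mean over all 12 libraries reached 1 CPM. Some targets, such as Ifit3 and Ifi44, reached it only through the 3 libraries, which favours a call above. The median log2 difference of the 50 targets between the medians of the sets was 2.52, against 0.02 over all genes tested. The targets covered several arms of the response. Among RNA-binding and antiviral effectors, Rsad2 (viperin, which makes a chain-terminating nucleotide) lay at 163, 160 and 182 CPM against 2.24 to 10.2 CPM, and Oas1a, a sensor of double-stranded RNA that activates RNase L, at 276, 308 and 248 CPM against 4.60 to 15.7 CPM. Bst2 (tetherin), which holds budding virions at the cell surface, lay at 331, 320 and 299 CPM against 25.4 to 48.3 CPM. None of these 3 genes overlapped between the sets.

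Other targets among the 20 widest named gaps were Rtp4 (145 to 170 CPM against at most 5.41), Tyki (RefSeq Cmpk2, a nucleotide kinase next to Rsad2; 51.3 to 54.9 against at most 2.59), Ifi44 (39.3 to 51.5 against at most 1.79), Oas1g (53.2 to 57.1 against at most 2.79) and Trim30 (43.3 to 51.9 against at most 2.32). The immunity-related GTPases Igtp and Tgtp, which attack the vacuoles of intracellular parasites, lay at 383 to 445 CPM against 9.95 to 32.4 and at 30.3 to 36.1 CPM against at most 3.38. Parp9, a partner of the ubiquitin ligase Dtx3l, lay at 280 to 309 CPM against 17.2 to 37.3. The smallest gap among the targets above belonged to Oas3, at 5.62, 4.56 and 3.90 CPM against 0.193 to 3.49 CPM. The 7 targets that overlapped between the sets were Ifi203, Ifitm1, Trim25, Lgals3bp, Slfn2, Slfn8 and Ly6e. For Ly6e the 3 libraries lay at 53.5 to 59.9 CPM inside the 46.6 to 76.2 CPM of the others. Mx1, Ifi27, Ifi205 and Phf11 were under the filter of a mean of 1 CPM. Isg15 and Parp10 were not found by name.

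Of the interferon genes on the list, Il28b was not found in the tables by name, and the others were not detected. Ifnb1, Ifna1, Ifna2, Ifna4, Ifna5, Ifng and Ifnk had 0 counts in each of the 12 libraries, and 3 counts, the limit that a count of 0 allows, corresponded to 0.238 to 0.725 CPM in a library. Of the 6 tested receptor genes 1 (16.7%) lay above and none below, near the 14.5% above over all genes. Ifnar1 lay at 127, 131 and 148 CPM against 92.8 to 135 CPM, and Ifnar2 at 11.9, 15.5 and 19.6 CPM against 9.75 to 24.9 CPM. Ifngr1, Ifngr2 and Il10rb overlapped as well. Il28ra, the specific chain of the interferon lambda receptor, lay above the 9, at 12.8, 11.7 and 13.96 CPM against 2.79 to 9.57 CPM.

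The transducers separated unevenly between kinases and transcription factors. Of 9 tested genes 6 lay above, 3 of them with a 2-fold gap, and 2 below, against 14.5% above and 13.3% below over all genes. Irf9, filed as Isgf3g, lay at 33.1, 35.1 and 41.6 CPM against 3.87 to 10.5 CPM. Irf7, the factor that amplifies type I interferon transcription, lay at 13.99, 11.7 and 8.04 CPM against 0.0794 to 1.16 CPM. Among the others above were Stat2, Irf8 and Irf1, with log2 gaps of 0.94, 0.25 and 0.05. The kinases did not share this. Jak1 overlapped, at 583 to 675 CPM against 346 to 626 CPM, and Tyk2 (38.5 to 44.8 CPM against 47.1 to 92.1) and Jak2 (7.58 to 9.82 CPM against 11.1 to 21.4) lay below all 9.

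Of the 12 tested sensors and sensor adaptors of foreign nucleic acid, 4 (33.3%) lay above and none below, against 14.5% and 13.3% over all genes. Ddx58 (RIG-I), which detects RNA ends with a triphosphate, lay at 80.3, 76.7 and 77.1 CPM against 0.957 to 7.49 CPM. Ifih1 (MDA5), which detects long double-stranded RNA, lay at 283, 268 and 284 CPM against 8.19 to 36.0 CPM. Zbp1 and the kinase Tbk1 left small log2 gaps of 0.25 and 0.10. The third RIG-I-like gene, Dhx58 (filed as D11Lgp2e), overlapped at 7.06 to 8.61 CPM against 3.14 to 12.9 CPM, as did the adaptor Mavs and Irf3. Among 7 feedback genes, Usp18, Uba7 (filed as Ube1l, the enzyme that activates Isg15), Pias1 and Socs1 lay above, and Socs3, Ptpn6 and Nlrx1 overlapped.

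Class I antigen presentation separated as a group. Of 22 tested genes 19 lay above and none below, against 14.5% and 13.3% over all genes, and the median log2 difference was 1.46. A 2-fold gap was left by 6 of them, against 0.657% of all genes, and by 12 without the inhibitor experiment, against 1.26%. The immunoproteasome subunit Psmb8 lay at 101, 114 and 98.3 CPM against 1.43 to 18.8 CPM. The peptide pump gene Tap1 lay at 61.7, 65.6 and 55.1 CPM against 1.99 to 17.9 CPM. The light chain B2m lay at 598, 635 and 574 CPM against 68.3 to 290 CPM. The heavy chains H2-D1 and H2-K1 lay above with log2 gaps of 0.68 and 0.20; class I heavy chains are near-identical, so reads may be divided between them. Nlrc5 (filed as AI451557), the class I transactivator, overlapped at 2.48 to 4.79 CPM against 0 to 4.18 CPM.

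The interferon level was nearly flat across the 3 days and differed among the 9. The summed level of the 50 targets was 4715 to 4904 CPM in the feeder-removal libraries. It was 930 to 1103 CPM in the inhibitor experiment, 643 to 762 CPM in the density experiment and 486 to 615 CPM in the sorted experiment. Of the 94 genes with a 2-fold gap above, 70 had their nearest library of the 9 in the inhibitor experiment, and leaving that experiment out increased the count from 94 to 180. The median range among the 3 libraries over the 94 genes was 0.25 on the log2 scale, against 0.32 over all genes tested. These genes were chosen by their lowest value among the 3, which favours a small range, so the 2 values are a description only. Of the 94 genes, 56 were higher at day 0 than at day 9, as were 6928 of the 14301 tested. The largest range among the 3 was that of BC020489, which was also the single gene with at most 3 counts in each of the 9 libraries and at least 50 in each of the 3. It lay at 12.3, 5.57 and 6.57 CPM.

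Sets were also compared on the same support. Between day 0 and DMSO, both on MEF, the median log2 difference was 2.27 for interferon targets and 1.22 for class I genes. Between the mean of days 4 and 9 and the mean of the epithelial-like and mesenchymal-like libraries, all on Matrigel, it was 2.64 and 1.75. In the same comparisons the median of 24 fibroblast markers was -2.84 and -1.90, so the libraries compared also differed in these markers. The median of transducers differed more by support, at 0.27 on MEF and 1.36 on Matrigel. That of sensors was 0.25 and 0.70, that of feedback genes 0.70 and 1.15, and that of receptors 0.01 and 0.06. Fewer libraries make separation easier, so the shares over all genes are higher within a support. Within MEF libraries alone 47 of the 50 targets lay above and 1 below, against 35.5% above and 34.2% below over all genes. Within Matrigel libraries alone 46 lay above and none below, against 21.9% and 19.9%.

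Markers of other cell types were also summed. Fibroblast and myeloid markers were not highest in the 3 libraries. The summed level of 24 fibroblast markers was 540 to 605 CPM in the 3 libraries and 357 to 12980 CPM in the 9, where the mesenchymal-like library was highest and DMSO reached 4573 CPM. None of those 24 markers lay above the 9, against 14.5% over all genes. Fn1, Col5a1 and Thy1 (12.5%) lay below, near the 13.3% over all genes. Of 16 tested myeloid markers none separated in either direction, against 14.5% above and 13.3% below over all genes. Their sum was 12.9 to 14.3 CPM in the 3 and 10.2 to 525 CPM in the 9. The macrophage genes Csf1r, Tyrobp, Mpeg1, C1qa, C1qb and C1qc had 0 counts in all 3. Markers of testis somatic cells had an order of experiments like that of the interferon targets, at low levels. Their sum was 57.4 to 64.6 CPM in the 3 libraries, 46.8 to 64.7 in the inhibitor experiment, 25.8 to 46.4 in the density experiment and 14.8 to 23.8 in the sorted experiment, so the 3 overlapped the inhibitor experiment. Of 9 tested members 2 (22.2%, Clu and Dhh) lay above and none below, against 14.5% and 13.3%. The median log2 difference was 1.05, with 5 members higher and 4 lower. With matched support it was 0.30 on MEF and 0.95 on Matrigel. The Sertoli cell genes Amh and Fshr and the Leydig cell genes Cyp17a1, Hsd3b1, Insl3 and Lhcgr had 0 counts in all 3, and all of these except Amh also had 0 counts in the 9. The part of these cells in the interferon values was not tested. In bulk RNA fewer cells of a type and less RNA per cell cannot be told apart.

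**Figure D2:**
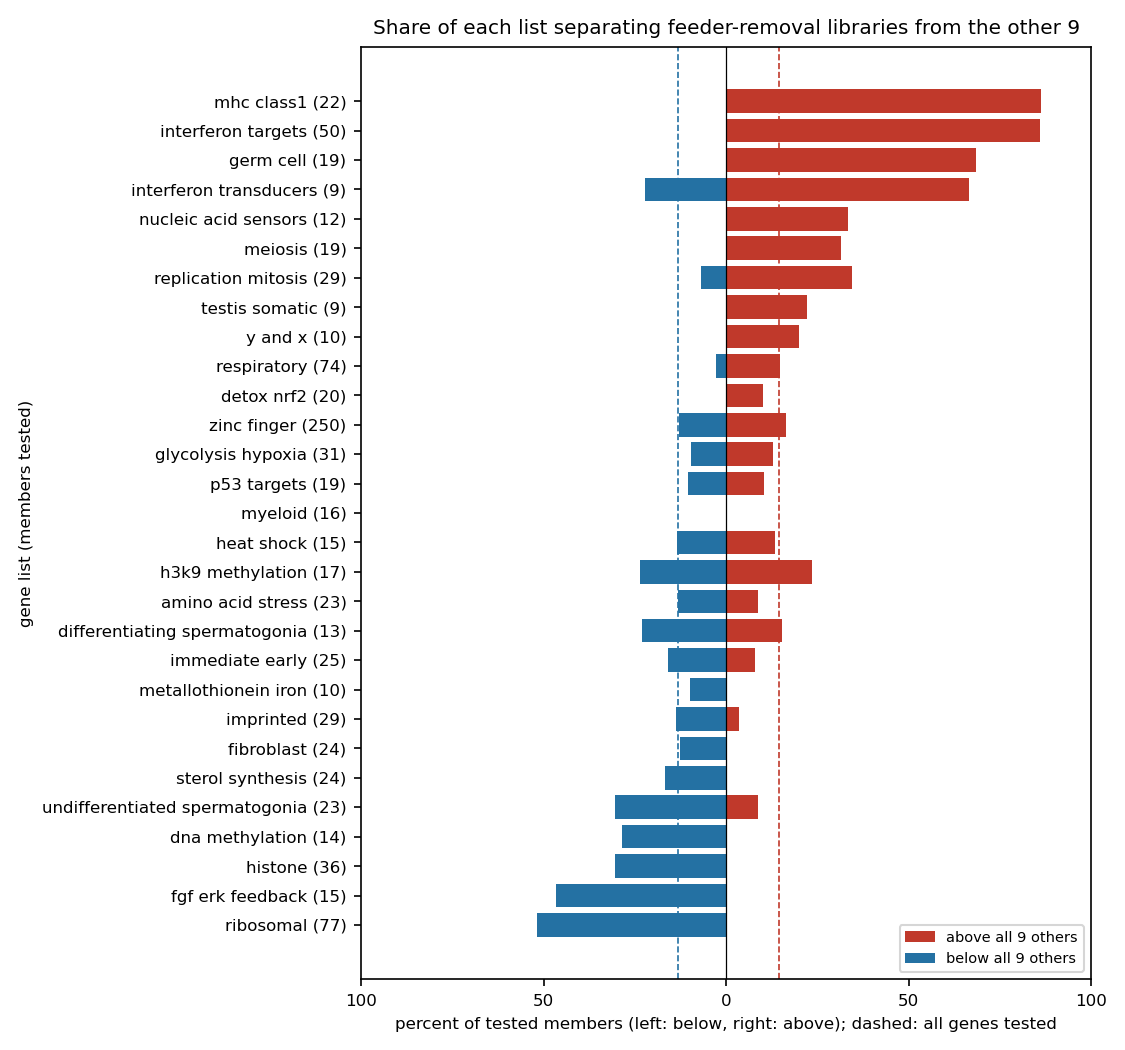
Percent of the tested members of each gene list lying above (red, to the right) or below (blue, to the left) all 9 other libraries, with the number tested in brackets and dashed lines at the shares over all genes tested, 14.5% and 13.3%. Class I genes and interferon targets stand at the top with 19 of 22 and 43 of 50 members above, and FGF-ERK feedback and ribosomal protein genes at the bottom with 7 of 15 and 40 of 77 below.

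The 6 interferon and class I lists together made up 43 of the 94 genes with a 2-fold gap above, or 45.7%. They made up 77 of the 2080 genes above at any gap, or 3.70%, so 2003 of those genes were outside the lists. The 51 genes with a 2-fold gap outside the lists included further genes known to respond to interferon. Among these were the guanylate-binding proteins LOC626578 (RefSeq Gbp10), Mpa2l (Gbp6), Gbp6 (Gbp7), BC057170 (Gbp9) and Gbp4. Sp110, Rnf213, Ube2l6, Nmi, Zc3hav1, Oas1c, Il18bp, Trim34 and 1300018I05Rik (Cmtr1) were also among them. No list had been set for such genes, so they are not counted. Rnf213, a very large ubiquitin ligase, lay at 31.8, 32.9 and 39.3 CPM against 0.497 to 4.18 CPM. Ube2l6, the conjugating enzyme for Isg15, lay at 63.9, 68.1 and 58.7 CPM against 0.995 to 8.55 CPM. Sp110, a nuclear body protein, lay at 20.5, 21.4 and 22.2 CPM against 0.373 to 2.39 CPM. LOC667370, without a RefSeq match here, lay at 46.2, 48.0 and 52.6 CPM against 0 to 0.967 CPM, and BC013672 at 128, 139 and 121 CPM against 1.69 to 5.41 CPM. The third predicted or clone-named gene by gap was 2010002M12Rik (RefSeq Ifit1bl2), at 7.98, 10.5 and 8.68 CPM against 0 to 0.697 CPM.

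Other genes in that tail are named here after their values were seen. Hormad1, which sits on unsynapsed meiotic chromosome axes, lay at 160, 129 and 137 CPM against 37.5 to 57.1 CPM. Lamp2, a lysosomal membrane protein used in autophagy, lay at 691, 694 and 687 CPM against 205 to 329 CPM. Tex10 lay at 736, 726 and 653 CPM against 242 to 314 CPM. The choice of these 3 abundant genes from the tail fixed that the sets do not overlap for them. Their log2 ratios between nearest libraries were 1.17 (0.98 to 1.37), 1.06 (1.00 to 1.12) and 1.06 (0.98 to 1.13). The vitamin D receptor Vdr lay at 32.4, 45.2 and 42.8 CPM against 2.49 to 13.04 CPM. The actin and phosphatase regulator Phactr1 lay at 32.4, 30.3 and 27.8 CPM against 0.995 to 7.34 CPM. The helicase-like factor Hltf, which remodels stalled replication forks, lay at 78.8, 78.1 and 84.5 CPM against 20.4 to 35.3 CPM. Amd2, Pnpt1 (an RNA exonuclease known to respond to type I interferon), Skor1 (filed as Lbxcor1), A2m, C2 (a complement component) and Trh also had gaps of at least 2-fold.

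Most germ cell genes lay higher in the feeder-removal libraries by small amounts. Of 19 tested members of the general germ cell list 13 lay above all 9 and none below, against 14.5% above over all genes, and none had a 2-fold gap. The median log2 difference was 0.60. Tex11, an X-linked gene needed for meiotic recombination, lay at 563, 546 and 525 CPM against 130 to 291 CPM. Stk31, a tudor-domain kinase of germ cells, lay at 564, 511 and 551 CPM against 188 to 328 CPM. The RNA helicase Ddx4 (Vasa) lay at 872, 827 and 868 CPM against 417 to 642 CPM. Piwil2, Mael, Asz1, Tdrd1, Tdrd5, Tdrd9 and Mov10l1, which serve the piRNA pathway that silences transposons, all lay above. Dazl, the most abundant of the list, overlapped at 1855 to 2065 CPM against 1436 to 1914 CPM, and so did Pou5f1, whose reporter defined the sort. Ddx4 and Dazl, which mark germ cells, were thus abundant in all 12 libraries. Of 19 tested meiosis genes 6 (31.6%) lay above and none below, among them Hormad1 and the synaptonemal complex gene Sycp3 at 391.6, 297 and 306 CPM against 96.5 to 213 CPM.

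Of 23 tested genes of undifferentiated spermatogonia, the cells that include the stem cells, 7 lay below all 9, 2 above, and 14 overlapped, against 13.3% below and 14.5% above over all genes. A 2-fold gap was left by 4 of the 7. The median log2 difference of the list was -0.58. Etv4, an ETS factor downstream of FGF and GDNF signalling, lay at 7.19, 6.84 and 5.92 CPM against 35.2 to 75.2 CPM. Lhx1, a homeobox gene induced by GDNF, lay at 5.88, 6.67 and 7.06 CPM against 33.8 to 103 CPM. Neither gene overlapped, and the log2 ratios between nearest libraries were -2.29 (-2.76 to -1.85) and -2.26 (-2.62 to -1.91).

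Bcl6b, a transcriptional repressor that GDNF induces, lay at 40.5, 47.5 and 60.1 CPM against 145 to 345 CPM, and Lin28 (RefSeq Lin28a), which blocks maturation of let-7, at 31.0, 34.2 and 36.0 CPM against 73.5 to 111 CPM. The GDNF receptor pair was lower too. Gfra1 lay at 35.8, 42.8 and 35.1 CPM against 58.6 to 174 CPM, and Ret at 207, 205 and 217 CPM against 316 to 699 CPM. Zbtb16 (PLZF), a repressor required to maintain the stem cells, lay at 48.0, 53.2 and 62.3 CPM against 84.2 to 289 CPM. The genes above were Nanos3, at 26.7, 26.1 and 23.3 CPM against 5.08 to 17.0 CPM, and Taf4b. Etv5, Id4, Nanos2, Foxo1, Sall4 and Utf1 overlapped, Etv5 at 169 to 210 CPM against 196 to 609 CPM. In deposited TPM 7 of the list also lay below, against 11% of all genes, but 2 had a 2-fold gap (Etv4 and Lhx1), against 0.853%. Without the inhibitor experiment 11 lay below, against 17.6% of all genes. With DESeq2 size factors 1 member lay above, against 13.9%.

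**Figure D3:**
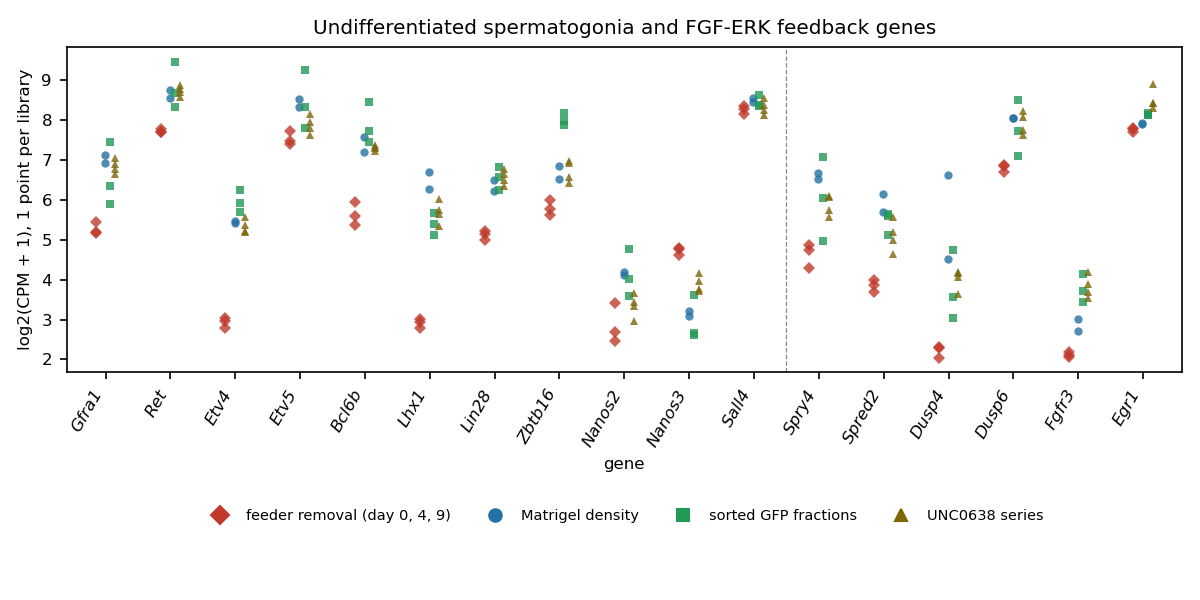
Level of 17 genes of undifferentiated spermatogonia (left) and FGF-ERK feedback (right) as log2(CPM + 1), with 1 point per library. Red diamonds of the feeder-removal libraries lie below all others for Etv4 (5.92 to 7.19 CPM against 35.2 to 75.2) and Lhx1, and overlap them for Etv5, Nanos2 and Sall4.

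Among ERK feedback genes 7 of 15 tested lay below and none above, against 13.3% below and 14.5% above over all genes, and the median log2 difference was -0.83. Etv4 and Etv5 are on both this list and that of undifferentiated spermatogonia, and Etv5 overlapped. Besides Etv4, the genes below were the receptor Fgfr3, the inhibitors Spry4 and Spred2, the phosphatases Dusp4 and Dusp6, which remove phosphate from ERK, and Egr1, an early ERK target. Spred2 lay at 13.5, 11.99 and 14.9 CPM against 23.9 to 69.6 CPM. Dusp6 lay at 115, 102 and 114 CPM against 135 to 361 CPM. Egr1 stayed close to the others, at 221, 218 and 206 CPM against 238 to 478 CPM. The medians with matched support were -0.78 between day 0 and DMSO and -0.86 on Matrigel for this list, and -0.67 and -0.60 for the undifferentiated list. Medium growth factors are given in the labels as the same for all cultures.

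On the log2(CPM + 1) scale the widest gap below was that of Khsrp, a splicing and mRNA decay factor, at 3.66, 2.79 and 2.84 CPM against 26.5 to 57.3 CPM. Its log2 ratio between nearest libraries was -2.85 (-3.48 to -2.28). Cnot3, a subunit of the deadenylase complex, lay at 17.9, 18.3 and 22.7 CPM against 112 to 133 CPM. For both genes all 3 feeder-removal libraries stood clearly below the other 9. Taf10, a subunit of TFIID, lay at 2.09, 1.27 and 1.70 CPM against 17.0 to 39.2 CPM. Without a pseudocount its log2 ratio between nearest libraries, -3.02 (-3.89 to -2.24), was wider than that of Khsrp, within overlapping counting intervals. Sf3a2, a subunit of the U2 snRNP, lay at 5.88, 6.84 and 4.38 CPM against 34.1 to 70.0 CPM.

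The remaining named genes below had other roles. Epn1, an endocytic adaptor, lay at 1.83 to 4.87 CPM against 29.0 to 58.7 CPM, and Cap1, which recycles actin monomers, at 4.22 to 5.36 CPM against 30.3 to 85.8 CPM. Hspg2 (perlecan), a basement membrane proteoglycan, lay at 2.61, 2.11 and 4.55 CPM against 26.2 to 200.4 CPM. Hyou1, a chaperone of the endoplasmic reticulum, lay at 15.8 to 18.6 CPM against 80.5 to 119 CPM. Foxc2, a forkhead factor, lay at 8.70 to 11.1 CPM against 48.3 to 147 CPM. Mast3, Sipa1l3 and Btbd14b (RefSeq Nacc1) were also among the widest gaps below, with log2 gaps of -2.19, -2.06 and -1.95. The predicted or clone-named genes with the widest gaps below were 1110014K08Rik (RefSeq Ubald2), LOC100043597 and 2310014H01Rik, with log2 gaps of -2.10, -1.66 and -1.65. No gene had 3 or fewer counts in each of the 3 libraries and at least 50 in each of the 9.

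**Figure D4:**
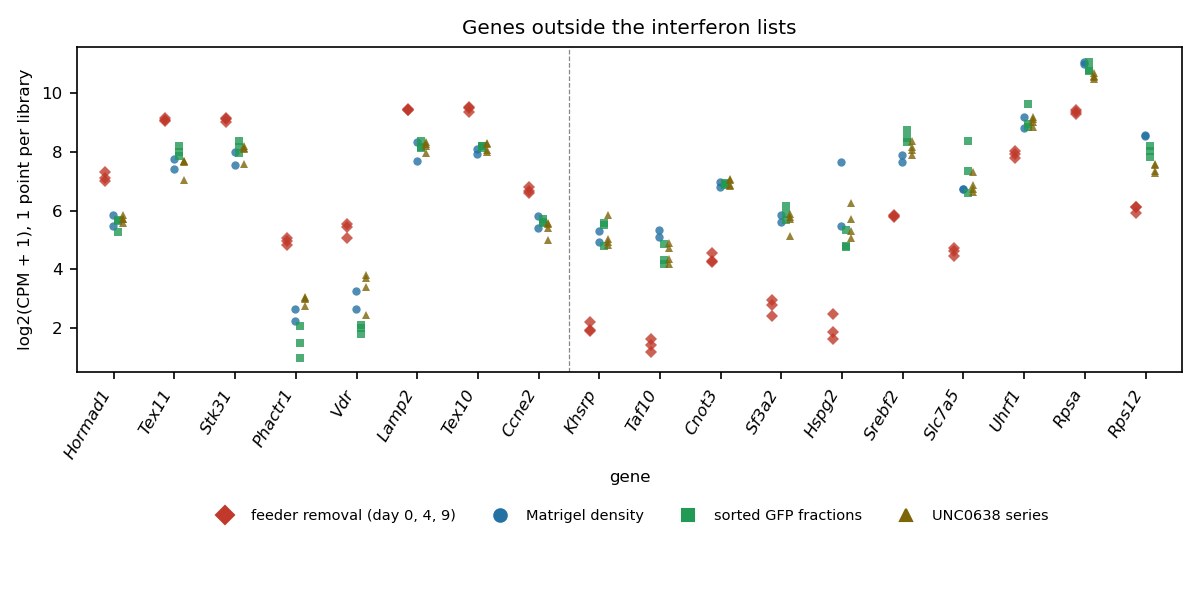
Level of 18 genes outside the interferon lists as log2(CPM + 1), with 1 point per library; genes left of the dashed line lie above all 9 others and genes to its right below. Khsrp stands at 2.79 to 3.66 CPM in the feeder-removal libraries against 26.5 to 57.3 CPM, and Lamp2 at 687 to 694 CPM against 205 to 329 CPM.

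Single genes of sterol and amino acid metabolism had wide gaps below. Srebf2, the factor that turns on sterol synthesis, lay at 56.1, 56.0 and 53.8 CPM against 203 to 423 CPM, yet of 24 tested sterol genes 4 lay below, Srebf2 and Mvk among them, and none above. Those 16.7% are near the 13.3% below over all genes. Slc7a5, a large neutral amino acid carrier, lay at 23.9, 25.7 and 20.8 CPM against 96.5 to 326 CPM, and Atf4, which induces it under amino acid shortage, lay below without a 2-fold gap at 40.8, 45.3 and 53.5 CPM against 87.9 to 209 CPM. On the amino acid stress list of 23 genes, 3 (13.04%) lay below and 2 (8.70%) above, which is no more than the 13.3% and 14.5% over all genes. Of 14 tested DNA methylation genes 4 (28.6%) lay below and none above, and none had a 2-fold gap. Dnmt1, the maintenance methyltransferase, lay at 221, 223 and 297 CPM against 383 to 549 CPM, and Uhrf1, which brings it to replicated DNA, at 218, 243 and 258 CPM against 446 to 781 CPM. Mbd1, which binds methylated DNA, also lay below.

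Among 17 tested genes of H3K9 methylation 4 (23.5%) lay above and 4 below, against 14.5% and 13.3% over all genes. Wiz, a zinc finger partner of G9a, lay below with a log2 gap of -1.49, and Cbx3 (HP1 gamma) lay above at 708, 717 and 790 CPM against 237 to 530 CPM. Of 29 tested imprinted genes 1 lay above (Mkrn3) and 4 below, namely Gnas, H19, Igf2 and Zrsr1. The share below, 13.8%, is near the 13.3% over all genes, so the list as a whole does not stand out below. H19 and Igf2 are neighbours with opposite parental expression. H19 lay at 22.6, 24.7 and 22.2 CPM against 35.0 to 62.0 CPM, and Igf2 lay at 78.4, 79.4 and 74.1 CPM against 107 to 320 CPM. Of 29 genes of replication and mitosis 10 (34.5%) lay above and 2 (6.90%) below, against 14.5% and 13.3%. Ccne2, the cyclin E of S phase entry, lay above at 100.4, 95.2 and 109 CPM against 30.9 to 56.0 CPM, while Ccne1 lay below at 17.7, 20.9 and 19.9 CPM against 27.9 to 39.0 CPM.

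Many ribosomal protein genes lay on the lower side. Of 77 tested genes 40 (51.9%) lay below and none above, against 13.3% and 14.5% over all genes, with a median log2 difference of -0.65. Their summed share of the counts was 2.66% to 3.26% in the 3 libraries and 3.87% to 5.68% in the 9. Rpsa, also a laminin receptor precursor, lay at 650, 684 and 625 CPM against 1432 to 2136 CPM, and Rps12 at 68.5, 69.3 and 59.9 CPM against 154 to 381 CPM. These 2 genes alone had 2-fold gaps. The matched-support medians of the list differed, at -0.38 between day 0 and DMSO and -1.20 on Matrigel. Of 36 tested replication-linked and other histone genes 11 (30.6%) lay below and none above, with a median of -0.99. Without the day 0 library 18 lay below, against 15.2% of all genes, and without the inhibitor experiment 19 did, against 17.6%. Their counts made up at most 0.0156% of a feeder-removal library and at most 0.0665% of any other, and Hist1h1c, the most separated, lay at 4.84, 3.72 and 2.52 CPM against 10.1 to 86.8 CPM. Many ribosomal and histone genes have near-identical copies, so the division of reads between copies is uncertain.

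**Figure D5:**
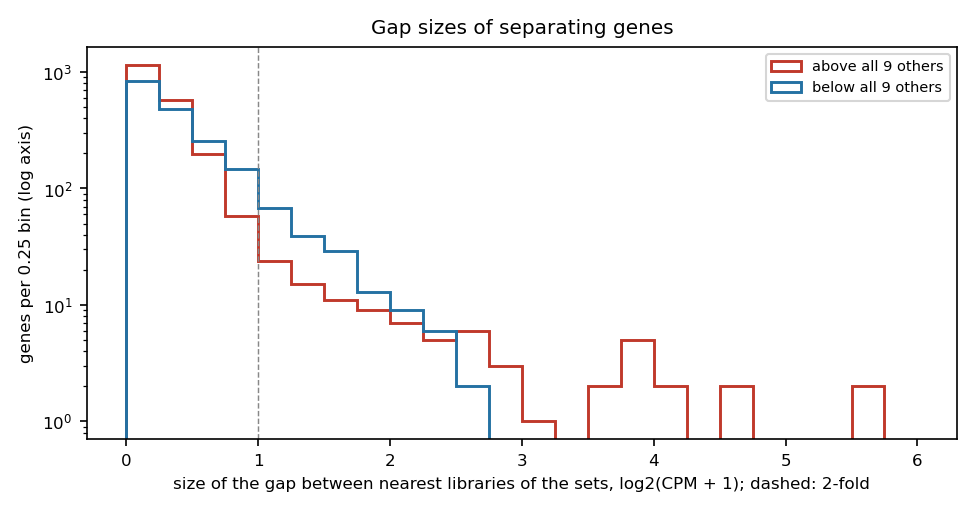
Number of separating genes (log axis) by the size of the gap between the nearest libraries of the sets, in bins of 0.25 on the log2(CPM + 1) scale, with a dashed line at 2-fold. Above the 9 others the tail reaches 5.64 (Usp18), and below them it ends at 2.56 (Khsrp).

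The median log2 gap was 0.22 for genes above and -0.29 for genes below. A gap of at least 4-fold was left by 35 genes above and 17 below. These are gaps in log2(CPM + 1), in which the pseudocount narrows those of low genes. Genes near the 2-fold threshold show how narrow it is: above, Slc12a8 (1.02) was inside and Cln3 (0.99) outside, and below, Lin28 (-1.01) was inside and Dnttip1 and Pxn just outside. Of the genes above, 1966 were also above in deposited TPM, and of those below 1519 were also below; none changed side.

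Transcript length moved with the side. The median transcript length was 2404 bases for genes above, 3224 for genes below and 2564 for all genes tested. In 4 bins of about equal size, from the shortest genes to the longest, 14.9%, 16.6%, 17.5% and 9.18% lay above, and 8.64%, 10.2%, 13.03% and 21.1% lay below. The share below thus increased from bin to bin, while the share above increased over the shorter bins and was lowest in the longest. Genes were also put in 10 bins of equal size by length. The difference between the longest and the shortest bin, in log2 units relative to each gene's mean, was -0.45 at day 0, -0.34 at day 4 and 0.01 at day 9, and -0.06 to 0.38 in the 9. Centring every library within those bins, added after seeing the data, changed the share of genes above among those separating from 52.3% to 63.2%, and among those with a 2-fold gap from 36.2% to 47.6%. Of the 94 and 166 genes with a 2-fold gap, 88 and 117 kept it. After this centring 2592 of all genes tested lay above and 1512 below. By list, 45 of 50 interferon targets, 19 of 22 class I genes and 15 of 19 germ cell genes lay above. Below lay 5 of 15 ERK feedback genes, 6 of 23 undifferentiated genes, 56 of 77 ribosomal protein genes and 14 of 36 histone genes. On the other side lay 2 undifferentiated genes and 1 ribosomal gene. A 2-fold gap below was left by 1 ERK feedback gene and 2 undifferentiated genes. The part of transcript length was not tested further.

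Depth was 7661992 to 12000985 expected counts in the 3 libraries and 4335210 to 12019672 in the 9, with medians of 11873139 and 5230423. The density and inhibitor libraries, 6 of the 9, held 4335210 to 5777925 and were shallower than all 3, and the sorted libraries held 7925487 to 12019672. The part of depth in the results was not tested. Transcript length exceeded the deposited effective length, which falls as fragments grow longer, by 149 to 157 bases in the 3 libraries and by 133 to 173 in the 9, and these ranges overlapped. The 10 most abundant genes took 4.27% to 4.57% of the counts in the 3 and 4.33% to 10.5% in the 9, mostly through LOC672857 (1.15% to 1.34% against 1.19% to 6.30%). Pearson correlations of log2 levels across genes were 0.984 to 0.987 within the 3 and 0.879 to 0.951 between the 3 and the 9. Within the 9 they were 0.916 to 0.982 inside an experiment and 0.883 to 0.968 between experiments, as a description over genes that share libraries.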

How the data were processed

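Each RNA library had 1 table of 27128 genes. The expected counts are estimated counts per gene deposited by the authors, without normalization, per the file headers. The deposited TPM column is scaled to transcript length, per the file headers. RSEM, Trim Galore and the build mm10 are named in the submitters' processing notes, and the aligner is not given in the sources used here. RNA was amplified by a modified Smart-seq2 procedure, per the labels' protocols.

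Counts were rounded and scaled to CPM with TMM factors (edgeR 4.0.16, R 4.3.3), which ranged from 0.911 to 1.07. A gene was tested when its mean over all 12 libraries reached 1 CPM. The gap of a gene is the difference in log2(CPM + 1) between the nearest libraries of the sets, and the pseudocount understates it for low genes. Named genes had at least 50 expected counts in every library of the higher set: the 20 widest gaps above, the 15 widest below, 3 predicted or clone-named genes per side, and genes at 3 or fewer counts in the lower set, besides list members and the 3 markers. The members and gene lists were chosen with earlier results of these data known. A symbol's RefSeq name came from its transcripts (12179 of the tested genes with a chromosome). Steps were tested on simulated data. Alternatives were DESeq2 1.42.0 size factors, total counts, TPM, other filters and pseudocounts, and libraries or experiments left out. The 4 ATAC libraries were not analysed here, and some genes are not reported here. Checks of promoter GC content and motif shares over whole sets were void because 72.5% and 69.6% of the genes above and below had a promoter sequence, under the 80% required. Other software was scipy 1.17.1, pandas 2.3.3, matplotlib 3.10.9 and numpy 2.4.6 on Python 3.11.15.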

Additional observations from a re-analysis of the deposited data

How the results depend on the processing

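The counts of 2080 genes above and 1895 below, and of 94 and 166 with a 2-fold gap, stayed within 1.5 times under DESeq2 size factors, total counts, deposited TPM and no filter. Leaving out each library in turn gave 2136 to 2521 above, 1944 to 2387 below, 95 to 111 above and 167 to 229 below with a 2-fold gap. Fewer libraries make separation easier. Without the inhibitor experiment 180 and 251 genes had a 2-fold gap above and below, and without the sorted experiment 266 had one below. A mean of at least 10 CPM left 59 above, and a pseudocount of 5 CPM left 99 below with a 2-fold gap. Of the alternatives added after seeing the data, MEF libraries alone (1 against 4) gave 5083 above, 4888 below and 314 and 714 with a 2-fold gap, and Matrigel libraries alone (2 against 5) gave 3133 above and 205 and 291 with a 2-fold gap. The median of interferon targets was 3.14 at a pseudocount of 0.1 and 2.00 at 5, and that of histones -1.43 and -0.44. Each of the 42 named genes, chosen mostly for wide gaps, kept its direction and its side of the 2-fold gap under DESeq2 size factors, total counts, deposited TPM and length centring. Leaving libraries out cannot end a separation or narrow a gap. No paired analysis was possible because each RNA group has 1 library and the ATAC libraries, whose groups share replicate numbers, were not analysed here. Depth limits low genes: 3 counts were 0.238 to 0.725 CPM.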
